A study of Mus musculus with 8 samples.

Results

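The genes described here encode the proteins of the cytosolic ribosome in the embryonic mouse hippocampus. Members were taken by name: symbols made of Rpl or Rps and a number, together with Rpsa, Rplp0, Rplp1 and Rplp2, with rows named as pseudogenes (-ps) and the Rps6k kinases left out. Of 82 names that fit, 80 had a mean raw count of at least 10 over the libraries, out of 16397 genes in the deposited table. These were 47 large subunit genes (Rpl) and 33 small subunit genes (Rps), spread over 19 chromosomes.

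RNA was sequenced from 4 intrauterine growth restriction (IUGR) and 4 sham control hippocampi of C57Bl/6J mice at E15.5, with 1 library per sample. Dams of the IUGR group carried a micro-osmotic pump with U-46619, a thromboxane A2 analog that raises maternal blood pressure, from E12.5, and dams of the sham group carried a pump with vehicle (dilute ethanol) from the same day. All embryos therefore shared the strain, maternal surgery and vehicle. IUGR libraries are named T1-1, T1-3, T1-4 and T1-5, and sham libraries S1-4, S1-6, S3-1 and S3-4. The meaning of the prefixes is not given, and prefix and group cannot be told apart.

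A ribosome is built from a small subunit, which decodes the mRNA, and a large subunit, which joins amino acids, and each holds many different proteins around ribosomal RNA. A growing or dividing cell makes these proteins in large and nearly equal amounts. Their mRNAs typically begin with a C followed by a run of pyrimidines, the 5' terminal oligopyrimidine (TOP) tract, through which mTOR signaling and the protein LARP1 set how strongly they are translated. Neural progenitors are known to depend on this supply, and loss of single ribosomal proteins disturbs development of particular tissues. The mouse genome also carries many processed pseudogenes of these genes, which are intronless copies of the mRNA.

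The start of Rps6, the small subunit protein that S6 kinase phosphorylates, shows such a tract. Of the 80 members, 58 had a promoter in the RefSeq table (build GRCm38.p6). The motif searched on the transcribed strand was a C followed by at least 4 bases that are each C or T, with longer runs counted once. It began, alone or inside a longer run, within 2 bases of the annotated start in 20 members (34.5%), compared with 1236 (12%) of the 10306 tested genes with a promoter. Within 15 bases on either side it occurred in 41 members (70.7%) and 47.2% of tested genes. Each line below runs from 15 bases before the annotated start to the 15th transcribed base, with the longest run in capitals. The first 5 were chosen to show tracts at the start, and Rpsa, the laminin receptor homolog of the small subunit, to show a member without this motif in the window.
Rps6: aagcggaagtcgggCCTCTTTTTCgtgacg
Rpl38: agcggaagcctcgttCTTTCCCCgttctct
Rpl15: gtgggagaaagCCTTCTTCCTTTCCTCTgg
Rps10: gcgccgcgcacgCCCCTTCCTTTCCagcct
Rps18: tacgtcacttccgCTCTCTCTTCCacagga
Rpsa: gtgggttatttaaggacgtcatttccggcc
The windows lie at chr4:86857353-86857382 (minus strand) for Rps6, chr11:114668565-114668594 (plus) for Rpl38, chr14:18270972-18271001 (minus) for Rpl15, chr17:27635230-27635259 (minus) for Rps10, chr17:33955651-33955680 (minus) for Rps18 and chr9:120127751-120127780 (plus) for Rpsa. The run in Rps6 begins 1 base before the annotated start and is 10 bases long, whereas that in Rpl38 begins on the start itself and is 8 bases long. A match describes the letters of the window and not the translation of the mRNA, which was not measured.

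Total counts lay between 11212632 and 16672463 per library, and members took between 1.00% and 1.48% of them. Markers of other tissue differed between libraries. Counts were scaled to CPM, counts per 1000000 of the library. The CPM of 12 choroid plexus markers summed to 55.6 to 1300 in IUGR libraries, compared with 5420 to 12000 in sham libraries. For 5 meningeal fibroblast markers the sum was 60.3 to 2600 in IUGR libraries, compared with 254 to 510 in sham libraries. No marker of these lists was at 0 in every library. The 8 markers of dorsal telencephalon and hippocampus summed to 983 to 1160 CPM in IUGR libraries, compared with 852 to 1680 in sham libraries. All 8 had a log2 fold change of IUGR over sham below 0 (median -0.37), against 55.5% of all tested genes. In bulk tissue, fewer cells of a type and less RNA per cell cannot be told apart. Xist, which is transcribed from the inactive X chromosome in females, had at least 11245 counts in T1-3, T1-4, T1-5 and S1-6 and at most 78 counts in the other libraries, so the sexes were not balanced between groups. The part of cell makeup and sex in the values below was not tested.

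The comparison of IUGR with sham hippocampi asked whether the level of ribosomal protein mRNA, relative to other counted RNA, differed between the groups. A change shared by all RNA would not show in such values. No ribosomal protein gene was called. Of the 80 members, 78 are annotated as protein-coding and entered edgeR's quasi-likelihood test with 13707 genes in all, and a call required an adjusted p (Benjamini-Hochberg) of 0.05 or less together with a change of 2-fold or more, up or down. Calls numbered 0 of 78 members, against 1.46% of all tested genes. With no limit on the fold change they numbered 0 of 78, against 1.55% of tested genes. By DESeq2 and limma-voom, 0 of 78 members were called, against 3.1% and 2.39% of tested genes, and with no limit on the fold change 0 of 78, against 4.26% and 2.55%. At an unadjusted p under 0.05 edgeR found 0 of 78 members, against 11.1% of tested genes (4.46% higher and 6.62% lower in IUGR). DESeq2 and limma-voom also found 0 of 78 members at that level, against 11.9% and 11% of tested genes. The groups overlapped for each of the 78 members, whereas they did not overlap for 7.14% of tested genes. Members are not independent of each other, so these counts describe them and are not a test of the family.

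The size of any difference in relative level was bounded for most members. The log2 fold changes lay between -0.57 and 0.14, with a median of -0.08 for members and -0.02 for all tested genes. The middle 50% of members lay between -0.15 and 0.01, compared with -0.14 and 0.11 for all tested genes. Fold changes were below 0 for 58 of 78 members (74.4%), namely 35 of 47 large subunit and 23 of 31 small subunit genes, against 55.5% of tested genes. The median was -0.07 for large and -0.09 for small subunit genes. The 95% interval included 0 for each of the 78 members and lay inside 2-fold in both directions for 73 of them, and inside 1.5-fold for 49. The standard error of a member's log2 fold change had a median of 0.20, compared with 0.19 for all tested genes.

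**Figure D1:**
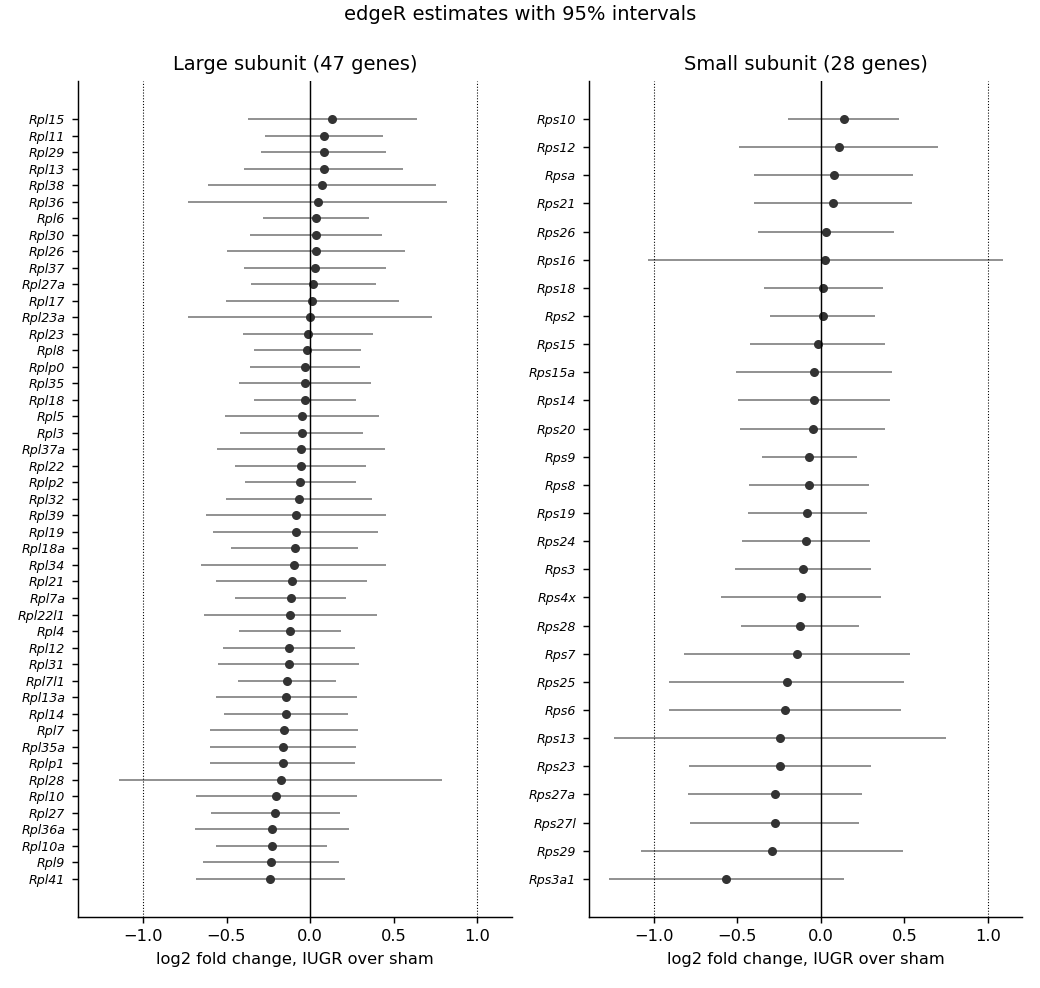
log2 fold change of IUGR over sham (x axis) for 75 tested members, by subunit, with points for edgeR's estimates, lines for 95% intervals and dotted lines at -1 and 1. Each interval crosses 0, and 55 of the 75 points lie to the left of 0.

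The slight excess of lower values depended on single libraries, above all S3-1, which stood apart for the whole family. Members took 1.48% of counts in S3-1, compared with 1.08% in S1-4, 1.07% in S1-6 and 1.00% in S3-4. Among IUGR libraries the share was 1.00% for T1-1, 1.06% for T1-3, 1.12% for T1-4 and 1.31% for T1-5. The IUGR mean was 1.13% ± 0.134 (SD, n = 4). The sham mean was 1.16% ± 0.218 (SD, n = 4), or 1.05% ± 0.0431 (SD, n = 3) without S3-1. Thus IUGR lay below sham with all libraries and above it when S3-1 was left out. The median log2 fold change of members moved from -0.08 to 0.07 without S3-1, and 55 of 78 members were then higher in IUGR. It was near 0 without T1-3, with 39 of 78 members lower, and without T1-1, with 43 of 78 lower, and it was -0.16 without T1-5. It was 0.05 against the S1 sham libraries alone and -0.17 against the S3 sham libraries alone. Calls stayed at 0 members in each of these fits.

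Most members were high in the same library. With each gene's log2 CPM set relative to its mean over 8 libraries, the median member was at 0.41 in S3-1, and 75 of 78 members were above their own mean there. The next was T1-5 at 0.14, with 59 of 78 members above their mean. The median of all tested genes was 0.052 in S3-1 and 0.017 in T1-5. Median values in the other libraries were -0.02 in T1-4, -0.04 in S1-6, -0.07 in S3-4, -0.15 in T1-3, and -0.16 in both T1-1 and S1-4. S3-1 held the highest value of 54 of 78 members (69.2%), compared with 21.8% of all tested genes. Large and small subunit genes had medians of 0.41 and 0.45 in S3-1 and of 0.15 and 0.13 in T1-5. The lowest value fell in T1-1 for 23 members (29.5%, against 13.4% of all tested genes). It fell in S1-4 for 22 (28.2%, against 8.67%), so that each group held both a low and a high library.

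**Figure D2:**
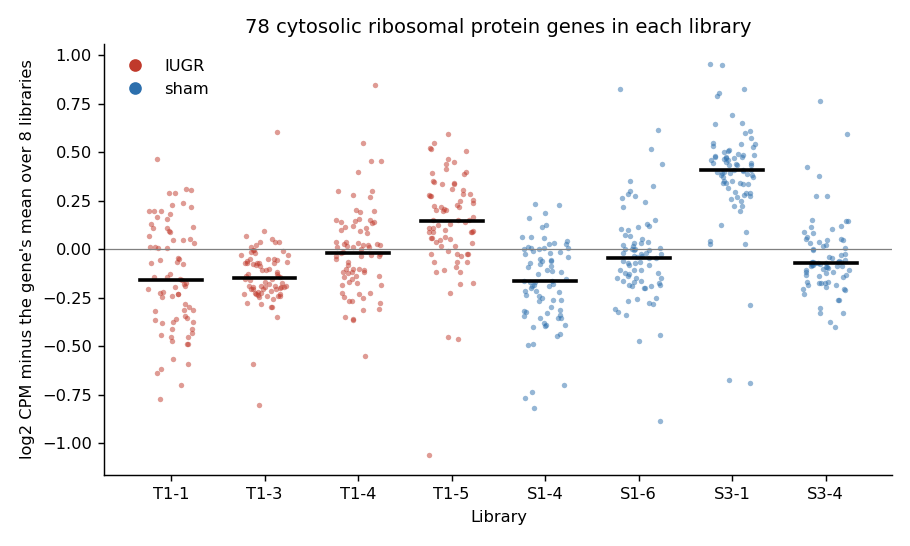
log2 CPM of each of 78 members minus its mean over the 8 libraries (y axis) in every library (x axis), with 1 point per gene and black bars for medians. The median is 0.41 in S3-1 and 0.14 in T1-5, and lies between -0.16 and -0.02 in the other libraries.

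Other genes with few annotated exon bases were also high in S3-1. These bases join the exons of all annotated transcripts of a gene and can exceed the length of its mRNA. Members have a median of 1835 annotated exon bases, compared with 4596 for all tested genes. Among tested genes that are not members, the median deviation in S3-1 was 0.28 for 145 genes under 800 bases, 0.30 for 640 genes of 800 to 1500 bases, 0.18 for 2749 genes of 1500 to 3000 bases, 0.09 for 3922 genes of 3000 to 5000 bases and -0.06 for 6173 longer genes. In T1-1 the order was the opposite, from -0.22 in the shortest to 0.02 in the longest class. Within the family, the median in S3-1 was 0.44 for 23 members under 1500 annotated bases and 0.40 for 55 members with more. This split follows the annotation and does not measure mRNA length. Residual mitochondrial ribosomal RNA (mt-Rnr1) took 0.0176% of counts in S3-1, the lowest of all libraries. It took 0.0474% in T1-5, where the median deviation of members was second highest. In S1-4 and T1-1, where that median was lowest, it took 0.0482% and 0.0872%. In the other libraries it took between 1.29% and 2.53%. The part of gene length and of residual ribosomal RNA in the height of S3-1 was not tested.

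**Figure D3:**
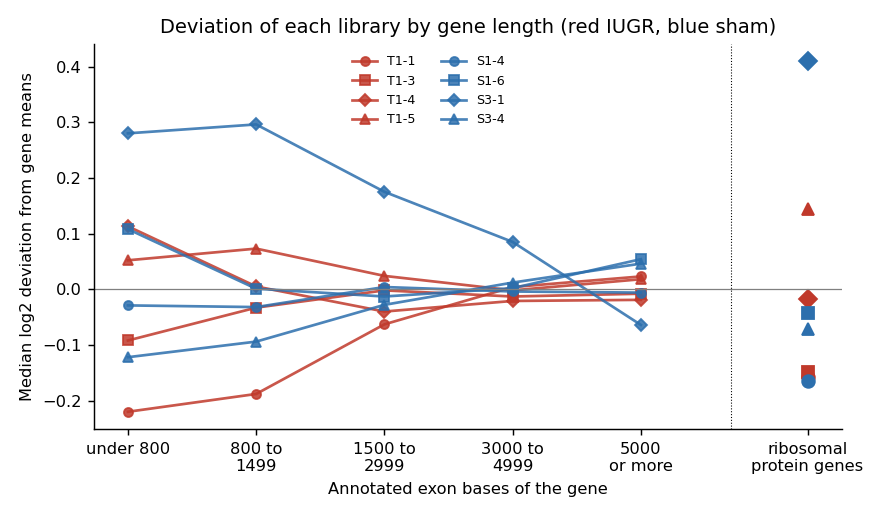
Median log2 deviation from gene means (y axis) of tested genes other than members in 5 classes of annotated exon bases (x axis), with 1 line per library, and of the 78 members at the right. S3-1 falls from 0.28 in the shortest to -0.06 in the longest class, and its members lie at 0.41.

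Members with the smallest p showed the same library. Rps3a1, which lies on the small subunit, had the largest fall in value. Among IUGR libraries T1-1 had 66.2 CPM, T1-3 had 38.2, T1-4 had 39.4 and T1-5 had 56.7, compared with 33.8 in S1-4, 73.7 in S1-6, 112 in S3-1 and 77.4 in S3-4. The sham values thus spanned both ends of the series, and the log2 fold change was -0.57 ± 0.32 (SE, 95% interval -1.27 to 0.14, edgeR adjusted p = 0.646). It was -0.78 without S1-4 and -0.30 without S3-1, and it was -0.89 against the S3 sham libraries alone and -0.10 against the S1 sham libraries alone. Across all alternatives it stayed below 0, between -0.89 and -0.10. The lowest Rps3a1 values fell in T1-3, T1-4, T1-5 and S1-4. There its processed copy Rps3a3 (98.87% identity, described below) took between 70.4% and 72.2% of the summed counts of the pair. That sum was 66.8 to 192 CPM in IUGR libraries and 74.9 to 122 CPM in sham libraries. The part of read assignment within the pair in the fall of Rps3a1 was not tested.

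Rpl10a, a large subunit protein, had 21.9 CPM in S1-4, 22.9 in S1-6, 29.7 in S3-1 and 24.1 in S3-4. The IUGR mean was 21.1 ± 1.49 CPM (SD, n = 4), and T1-4, at 23.3 CPM, was the 1 IUGR library that reached the sham range. The log2 fold change was -0.23 ± 0.15 (SE, edgeR adjusted p = 0.766). Small p values also belonged to Rpl9, Rps27l, Rpl27 and Rpl41, with log2 fold changes of -0.23, -0.28, -0.21 and -0.24 and adjusted p (edgeR) between 0.889 and 0.923, and S3-1 was the highest library for each of them.

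At the other end, the 6 core members with the largest positive values were Rps10 (log2 fold change 0.14), Rpl15 (0.13), Rps12 (0.11), Rpl11 (0.08), Rpl29 (0.08) and Rpl13 (0.08). Core here means a tested member other than the relatives described below. Rps10, a small subunit protein, had CPM of 74.8, 67.7, 65.3 and 73.3 in T1-1, T1-3, T1-4 and T1-5 and of 50.8, 65.0, 79.7 and 60.5 in S1-4, S1-6, S3-1 and S3-4. The sham range enclosed the whole IUGR range (95% interval of the log2 fold change -0.20 to 0.47). Rpl15 was high in T1-5 at 205 CPM and in S3-1 at 188 CPM, and lay between 104 and 141 CPM elsewhere. S1-4 was the lowest library for each of the 6 genes. On the negative side, beside Rps3a1, were the core members Rps29 (-0.29), Rps27a (-0.27), Rps23 (-0.24) and Rps13 (-0.24), each with a 95% interval that included 0.

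Members with known special roles showed no called change. Rps6, the S6 kinase substrate, had 4.57, 2.46, 5.39 and 4.56 CPM in T1-1, T1-3, T1-4 and T1-5 and 4.44, 3.20, 6.20 and 5.77 CPM in S1-4, S1-6, S3-1 and S3-4. T1-3 was lowest, S3-1 was highest, and the log2 fold change was -0.21 ± 0.31 (SE). Rpl5 and Rpl11, which with ribosomal RNA bind Mdm2 and so stabilize the tumor suppressor Trp53 when ribosome assembly fails, had log2 fold changes of -0.05 ± 0.21 and 0.08 ± 0.16 (SE). Rpl5 had 86.7 ± 17.8 CPM in IUGR and 89.5 ± 24.0 in sham (SD, n = 4 each). Rpl11 had 19.6 ± 2.01 CPM in IUGR and 18.5 ± 2.39 in sham (SD, n = 4 each), and its sham value was lowered by S1-4, at 14.9 CPM.

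Rpl38, which promotes translation of Hox mRNAs in the embryo, had 8.17 ± 2.14 CPM in IUGR and 7.77 ± 3.02 in sham (SD, n = 4 each), with a log2 fold change of 0.07 ± 0.31 (SE). Rps19, the gene most often mutated in Diamond-Blackfan anemia, had 151 ± 18.3 CPM in IUGR and 160 ± 34.3 in sham (SD, n = 4 each), with a log2 fold change of -0.08 ± 0.16 (SE). Rpl10, an X-linked large subunit gene that joins late in assembly, had 22.3 ± 3.89 CPM in IUGR and 25.7 ± 7.62 in sham (SD, n = 4 each), and its highest library was S3-1 at 37.0 CPM. Rps27a, made as a fusion with ubiquitin, had 13.6 ± 3.02 CPM in IUGR and 16.4 ± 4.25 in sham (SD, n = 4 each). For these 4 genes the range of each group overlapped that of the other.

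The stalk of the large subunit, which recruits elongation factors, is made of Rplp0, Rplp1 and Rplp2. Rplp0 had 548 ± 46.0 CPM in IUGR and 559 ± 106 in sham (SD, n = 4 each), with a log2 fold change of -0.03 ± 0.15 (SE). Rplp1 had 427 ± 95.8 CPM in IUGR and 478 ± 92.0 in sham (SD, n = 4 each), with a log2 fold change of -0.16 ± 0.20 (SE). Rplp2 had 104 ± 19.3 CPM in IUGR and 108 ± 10.2 in sham (SD, n = 4 each), with a log2 fold change of -0.06 ± 0.15 (SE). Rpsa had 26.4 ± 6.28 CPM in IUGR and 25.03 ± 5.61 in sham (SD, n = 4 each), with a log2 fold change of 0.08 ± 0.21 (SE). The SD within groups exceeded the difference of group means for each of these 4 genes.

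Levels between members differed far more than levels between groups. Per kb of annotated exons, the mean sham level of the 75 core members lay between 0.473 and 958 CPM per kb with a median of 29.8, although the ribosome holds their products in nearly equal numbers. Among the highest were Rplp1 (958 CPM per kb), Rpl8 (538), Rpl4 (519), Rps15 (442) and Rpl13a (374). By library, Rpl4 of the large subunit had 891, 856, 1101 and 989 CPM in T1-1, T1-3, T1-4 and T1-5 and 1004, 915, 1219 and 1029 CPM in S1-4, S1-6, S3-1 and S3-4. S3-1 was highest, and the other sham libraries lay inside the IUGR range. The lowest were Rps13 (0.473), Rps16 (0.938), Rps12 (2.08) and Rps29 (2.09). Of the core members, 21 were under 10 and 19 over 100 CPM per kb. The exon bases join all annotated transcripts of a gene, so genes with more annotated exon than their mRNA holds appear lower per kb. The order was nearly the same in both groups (Spearman rho of sham with IUGR means 0.998 across 75 genes, as a description). Raw counts of members just inside the minimum were 6 to 29 per library for Rps13 and 8 to 25 for Rps16 (means of 15.4 each). Rps27, whose mean was 8.12, and Rps12l2, whose mean was 7.25, fell just outside it.

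Low levels went along with shared sequence. The share of a member's 50-base windows that occur in no other annotated gene had a median of 61.7%, and was 4.91% for Rpl35 and 93.7% for Rpl8. Across the 75 core members, this share and the sham CPM per kb had a Spearman rho of 0.47, which is a description over genes of the same libraries. The 9 core members with under 20% of such windows had a median of 7.88 CPM per kb, and the 14 with at least 80% had a median of 126 CPM per kb. Rps6, with 15.4% unique windows and 14 genes that share a window with it, was listed at 3.09 CPM per kb in sham. Rps13 and Rps16 were low although 66.5% and 58.4% of their windows are unique. How reads that align to several genes were counted is not given in the sources used here, so levels between members are uncertain, and the part of this counting was not tested. The median log2 fold change was -0.05 for the 9 least unique and -0.08 for the 14 most unique members, which was not tested.

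**Figure D4:**
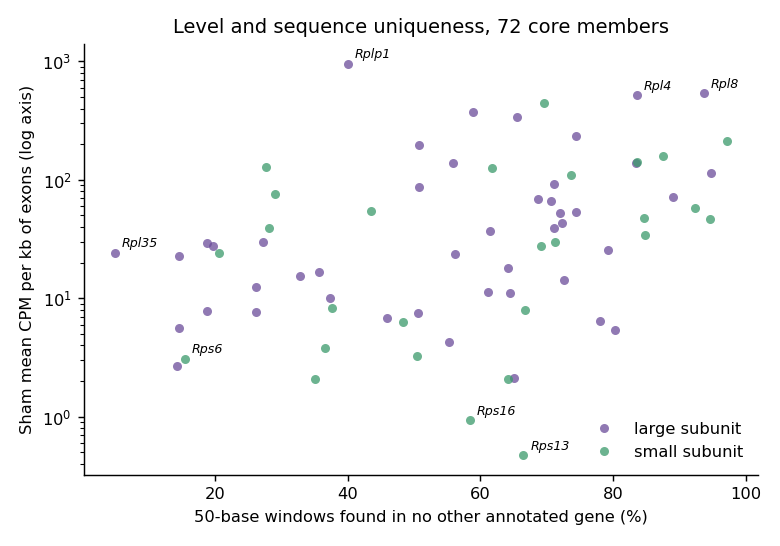
Mean sham CPM per kb of annotated exons (y axis, log scale) against the percent of 50-base windows found in no other annotated gene (x axis) for 72 core members, with 1 point per gene and colors for the subunits. Rpl8 is at 93.7% and 538 CPM per kb, Rps6 at 15.4% and 3.09, and Rps13 at 66.5% and 0.473.

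A processed copy of Rps3a1 was present at very different levels within both groups. Rps3a3 is annotated as a processed pseudogene at chr13:108670603-108671397 (GRCm38, plus strand), inside Pde4d and on the same strand. Its source gene Rps3a1 lies at chr3:86137940-86142702 (minus strand). The transcripts differ at 9 of 795 aligned bases (98.87% identity), namely at T216C, T260C, C363T, A427T, T534C, G582T, A660G, C762T and G792A, with the Rps3a1 base, the position counted from the 5' end of the Rps3a3 transcript, and the Rps3a3 base. A stretch with T216C and T260C is shown, with these bases in capitals, so that the pair can be compared (GENCODE M21 transcripts, bases 304 to 393 of Rps3a1 and 171 to 260 of Rps3a3).
Rps3a1: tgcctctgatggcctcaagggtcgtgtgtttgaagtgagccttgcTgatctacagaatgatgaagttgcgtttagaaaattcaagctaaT
Rps3a3: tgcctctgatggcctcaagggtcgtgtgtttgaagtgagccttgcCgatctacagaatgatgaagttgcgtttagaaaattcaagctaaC

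Rps3a3 had 8 counts for T1-1, 1579 for T1-3, 1114 for T1-4 and 1778 for T1-5. In sham it had 949 counts in S1-4, 14 in S1-6, 11 in S3-1 and 9 in S3-4. The values thus fell at 2 separate levels, and each group held libraries at both. Rps3a1 had its 4 lowest values, between 33.8 and 56.7 CPM, in the same libraries T1-3, T1-4, T1-5 and S1-4. Rps3a3 took between 70.4% and 72.2% of the summed counts of the pair in these libraries and between 0.767% and 1.62% in the others. The sum of the pair was not constant, with 66.8 CPM for T1-1, 135 for T1-3, 133 for T1-4 and 192 for T1-5, and 122 in S1-4, 74.9 in S1-6, 112 in S3-1 and 78.1 in S3-4. Xist and Rps3a3 were both high in T1-3, T1-4 and T1-5 and both low in T1-1, S3-1 and S3-4, whereas Xist alone was high in S1-6 and Rps3a3 alone was high in S1-4. The part of sex in this pattern was not tested.

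The fit over all biotypes, which includes pseudogenes, gave Rps3a3 a log2 fold change of 1.87 ± 1.51 (SE, 95% interval -1.48 to 5.21, edgeR adjusted p = 0.906). It was 6.53 without S1-4 (edgeR adjusted p = 0.102) and between 1.45 and 2.28 when any other library was left out (edgeR adjusted p between 0.69 and 1.0). This gene was chosen for description after its values were seen.

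**Figure D5:**
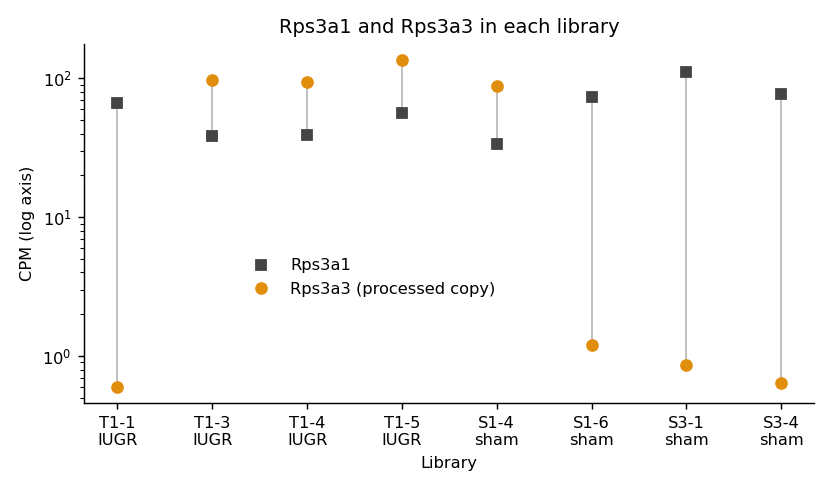
CPM (y axis, log scale) of Rps3a1 (squares) and Rps3a3 (circles) in each library (x axis), joined by a line. Rps3a3 lies above Rps3a1 in T1-3, T1-4, T1-5 and S1-4 and at or below 1.21 CPM in the other libraries.

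Of the other relatives of core members, Rpl22l1, Rpl7l1 and Rps4l were below their core gene in each library. Rpl22l1, which can replace Rpl22, had 48.4 ± 15.2 CPM in IUGR and 52.5 ± 11.9 in sham (SD, n = 4 each), with a log2 fold change of -0.12 ± 0.23 (SE). The ratio of Rpl22l1 to Rpl22 was 0.149 ± 0.0198 in IUGR and 0.158 ± 0.0198 in sham (SD, n = 4 each), a difference smaller than the SD. Rpl7l1, which is similar to Rpl7, had a ratio to Rpl7 of 0.274 ± 0.0674 in IUGR and 0.266 ± 0.0492 in sham (SD, n = 4 each). Its highest ratio was 0.371 in T1-1, where Rpl7 was at its lowest, 361 CPM. The ratio of Rps4l to Rps4x was 0.0936 ± 0.0298 in IUGR and 0.0948 ± 0.0399 in sham (SD, n = 4 each), a difference smaller than the SD. The ratio of Rps3a3 to Rps3a1, described above, differed far more between libraries, from 0.00773 in S3-1 to 2.59 in S1-4, and averaged 1.83 ± 1.22 for IUGR and 0.656 ± 1.29 for sham (SD, n = 4 each).

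Rps27l, an inducible relative of Rps27 that responds to p53, had 41.1, 53.7, 54.9 and 81.4 CPM in T1-1, T1-3, T1-4 and T1-5 and 53.3, 75.05, 90.7 and 60.7 CPM in S1-4, S1-6, S3-1 and S3-4. T1-5 and S3-1, the high libraries of the whole family, were also high here. The log2 fold change was -0.28 ± 0.23 (SE), and -0.49 ± 0.21 without T1-5 (edgeR adjusted p = 0.458). Rps4l, annotated as a transcribed processed pseudogene and tested in the fit over all biotypes, had 17.7 ± 4.12 CPM in IUGR and 18.1 ± 3.59 in sham (SD, n = 4 each), and its highest library was T1-1 and not S3-1.

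Ribosomal proteins whose symbols fall outside the name rule also did not pass the test. Fau, a fusion of a ubiquitin-like protein with a small subunit protein, had a log2 fold change of -0.04 ± 0.34, and Rpl36al 0.02 ± 0.24 (SE). Of the list, 3 genes were tested. Rows named as pseudogenes of ribosomal proteins, 36 in all, took 0.0155% ± 0.00161 of IUGR counts and 0.0158% ± 0.00263 of sham counts (SD, n = 4 each), and S3-1 was again highest at 0.0195%.

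The machinery that builds and regulates ribosomes was described by 8 lists. None of their genes passed an adjusted p of at most 0.05 by edgeR, against 1.55% of all tested genes. The counts below stand against 55.5% of all tested genes below 0 and 11.1% at an unadjusted p under 0.05 by edgeR. Elongation factors numbered 10, with a median log2 fold change of -0.01. Eef1a2, the neuronal and muscle form of the factor that brings aminoacyl-tRNA, had 27.4 ± 7.70 CPM in IUGR and 13.99 ± 3.02 in sham (SD, n = 4 each), with a log2 fold change of 0.97 ± 0.23 (SE, edgeR adjusted p = 0.0731). Neuron markers moved with it: all 12 had values above 0 in IUGR with a median of 0.59, 6 of them at an unadjusted p under 0.05 (4.46% of all tested genes were higher at that level), and the part of neuron content was not tested. The ubiquitous form Eef1a1 had a log2 fold change of -0.15 ± 0.17, and Eef2, which moves the ribosome along the mRNA, 0.07 ± 0.15 (SE). The 37 initiation factors had a median of -0.02, with 21 below 0 and none at an unadjusted p under 0.05 by edgeR.

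Other TOP mRNAs, which share the 5' tract with members, numbered 19 and had a median of -0.04 with none at an unadjusted p under 0.05 by edgeR. Ribosome biogenesis factors numbered 68, with a median of -0.06 and 46 below 0. The nearest to a change among them were Gnl3 (nucleostemin), at -0.26 ± 0.14, and Nop2, a ribosomal RNA methyltransferase, at -0.18 ± 0.13 (SE), while Npm1, a nucleolar chaperone, was at -0.04 ± 0.18 (SE). RNA polymerase I machinery, which transcribes ribosomal RNA, numbered 14, of which 13 were below 0, with a median of -0.10. The median of this list in S3-1 was 0.32 above gene means, so the same library was high. These lists overlap in part, and their medians stood beside -0.02 for all tested genes.

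Mitochondrial ribosomal proteins, which form a separate ribosome, numbered 76 with a median of -0.05, and 55 were below 0. They too were high in S3-1, at a median of 0.28, and in T1-5, at 0.12. Mrps6 had 31.3 ± 5.90 CPM in IUGR and 44.7 ± 3.13 in sham (SD, n = 4 each), with a log2 fold change of -0.51 ± 0.15 (SE, edgeR adjusted p = 0.166), and was the 1 gene of this list at an unadjusted p under 0.05.

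The mTOR and S6 kinase pathway numbered 27 genes with a median of -0.01. Mtor itself was at -0.03 ± 0.16, Rps6kb1, which encodes S6 kinase, at -0.06 ± 0.13, and Larp1 at -0.12 ± 0.23 (SE). Rragb, a GTPase that recruits mTOR complex to the lysosome, was at 0.43 ± 0.14 (SE, edgeR adjusted p = 0.217). The Myc family list held the Myc activators of ribosomal protein genes, their partner Max, and Max-binding antagonists of Myc. It numbered 9 genes with a median of -0.05. Myc had 15.6 ± 4.77 CPM in IUGR and 9.62 ± 5.29 in sham (SD, n = 4 each), with a log2 fold change of 0.70 ± 0.38 (SE, edgeR adjusted p = 0.613), and Mycn, the form used by neural progenitors, was at -0.20 ± 0.17 (SE, edgeR adjusted p = 0.944).

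With 4 libraries per group, the smallest two-sided p of an exact permutation test is 0.0286. A p that missed the threshold does not show that the groups were alike, and the intervals above give the differences these libraries leave possible. Of the members, 19 overlap another listed gene, 16 of them on the opposite strand only, and the strand setting of the counting is not given in the sources used here, so that reads of the partners may be included.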

How the data were processed

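Reads were single-end, from ribosomal RNA-depleted stranded total RNA libraries (Illumina HiSeq). The authors deposited, for each gene and sample, the unnormalized count of reads, and per the labels reads were aligned to mm10. The submitters' processing notes name Novoalign 2.8. The counting program, annotation release, strand setting and treatment of multiply aligned reads are not given in the sources used here. All 8 samples were used, grouped by their labels, and total counts are given in the text. Nothing states that samples came from separate litters, so p values measure the spread between these samples.

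Identifiers were matched to GENCODE M21 (16124 of 16397). The main fit took the 13707 protein-coding genes whose count averaged 10 or more but less than 50000, with edgeR 4.0.16 (R 4.3.3), TMM normalization, the quasi-likelihood test and Benjamini-Hochberg adjustment over all of them. Rps3a3 and Rps4l, annotated as pseudogenes, were taken from a fit over all biotypes. CPM used TMM-adjusted library sizes of the main fit, and log2 CPM a prior count of 2. Intervals are 95%. DESeq2 1.42.0 and limma 3.58.1 (voom) were alternatives, as were other normalizations, filters, and each sample left out. Tested on simulated data for IUGR against sham (13707 genes, 200 changed 4-fold), edgeR recovered 199 with 1 false call. The simulation gave all genes a common dispersion and no library an overall shift. It therefore does not show how well smaller changes are found in these libraries. Sequence sharing was counted as exact 50-base windows of GENCODE M21 transcripts on both strands.

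Named genes were the relatives of core members present in the table, the core members highest and lowest per kb in sham and largest in either direction of fold change, the members with the smallest p, members with set roles, and from each pathway list the 2 genes with the smallest p beside set genes. The members, lists and rules were chosen with earlier results of these data known. The leave-out values of Rps3a3 and of the summed share were added after seeing the data. Some genes that these rules would name are not reported here by name or drawn by name; they stay in the counts over all members.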

Additional observations from a re-analysis of the deposited data

Results flagged for a closer look

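Of 82 groups of 4 values looked at (41 quantities in each group), 4 held a library separated from the other 3 by most of the group's range, close to the 1 in 20 groups that chance gives (5%). The summed share of counts on members was 1.483% in S3-1, above the other sham libraries. The CPM of Rpl11 was 14.88 in S1-4, below the other sham libraries. The CPM of Rpl10a was 23.26 in T1-4, above the other IUGR libraries. The CPM of Rps3a3 was 87.73 in S1-4, compared with at most 1.21 in the other sham libraries. Hist1h2al, a histone row on chromosome 13 that, like Rps3a3, is annotated as a processed pseudogene, noticed for its like pattern after its values were seen, had 25 counts for T1-1, 264 for T1-3, 303 for T1-4, 305 for T1-5, 285 in S1-4, 16 in S1-6, 8 in S3-1 and 15 in S3-4.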

How the results depend on the processing

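Calls of members stayed at 0 in each of the 19 alternatives. Members lower at an unadjusted p under 0.05 numbered 0, and 1 against the sham samples of prefix S3 alone. With 1 library left out they ranged from 0 to 1. The median log2 fold change of members lay between -0.171 (S3 sham samples alone) and 0.069 (without S3-1). It was above 0 without S3-1 and against the S1 sham samples alone (0.053), and below 0 in the other alternatives, at -0.004 without T1-1 and -0.001 without T1-3. The IUGR minus sham difference in summed share was -0.0349 percentage points, and ranged from -0.0978 without T1-5 to 0.0727 without S3-1. Without T1-1 it was 0.00528. Of 39 named members, 11 kept the sign of their fold change in each alternative run for them and 28 changed it at least once, and none was called in any. Of 716 such values, 711 moved by less than 1 SD of replicates. Rps13, Rps16 and Rps29 have no value under a mean count of at least 50. No paired analysis was possible because replicate numbers follow the order of deposit and pair no samples. At mean counts near 15 the 95% intervals reach past 2-fold, and so do those of Rpl28 (mean count 47.9) and Rps3a1 (805.5).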
